A study of Homo sapiens with 6 samples.

Results

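Retinoid metabolism and binding proteins, 9 genes in all, were followed through K562 cells given all-trans retinoic acid (ATRA) or DMSO and an siRNA or scrambled RNA: CYP26A1, CYP26B1, DHRS3, DHRS9, RDH10, ALDH1A1, ALDH1A2, ALDH1A3 and CRABP2. The members are all probe sets that the platform annotation assigns to 1 of these 9 genes, which gave 17 of the 54675 probe sets in the table, and 9 of 19775 named genes. A probe set is a group of short probes on the array that reads 1 transcript region.

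K562 is an established human cell line from a chronic myeloid leukaemia. Their RNA was hybridised to 6 arrays (Affymetrix HG-U133 Plus 2.0), 1 array for the siRNA sample and 1 for the scrambled RNA sample of each of 3 independent experiments. All cells were nucleofected, with the siRNA labelled RNAi8 at up to 200 nM or with scrambled RNA (scrRNA), and 24 h later received ATRA in experiments 1 and 3 (4 arrays) or DMSO in experiment 2 (2 arrays). The labels write the ATRA concentration as 10e-7 mol/l, and no source used here gives the time of exposure. The line, the nucleofection and the culture are common to all groups, and no array is from cells without nucleofection. PRAME, whose product represses retinoic acid receptor signalling, kept 54.4%, 55.4% and 65.9% of its scrambled RNA signal in the siRNA samples of experiments 1, 2 and 3.

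Values are log2 expression, and a log2 difference of 1 is a doubling of signal. The arrays had similar medians, 5.96 to 6.02, but experiment 3 stood apart: its arrays correlated with those of the other experiments at 0.979 to 0.982, against at least 0.9965 among experiments 1 and 2. In experiment 3 the control probe sets for the 3' end of actin read 2.98 and 3.36 above those for its 5' end, against 0.63 to 0.92 on the other 4 arrays, and the gap for GAPDH was 0.74 and 1.20 against 0.03 to 0.08. The ATRA differences below are therefore also given for each ATRA experiment by itself, and the part of experiment 3's array quality in them was not tested. All DMSO arrays belong to experiment 2, so treatment and experiment cannot be told apart. Of 10 markers of the K562 line, 8 were measured, and all 8 lay above the median of all probe sets (5.99). Among markers of other cells, 2 of 6 for T and NK cells, 2 of 4 for B cells, 2 of 5 for stroma, 5 of 6 for epithelium, 2 of 5 for hepatocytes and 3 of 6 for granulocytes and monocytes lay above it. Each marker was read by its brightest probe set, and read that way 12882 of all 19775 genes lay at or above this median.

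Retinol is oxidised to retinal by dehydrogenases such as RDH10 and DHRS9, and reductases such as DHRS3 turn retinal back into retinol. Retinal dehydrogenases of the ALDH1A family make retinoic acid, CRABP2 carries it to the nucleus, and the CYP26 cytochromes hydroxylate it for removal. Retinoic acid receptors bind paired half-sites in DNA and switch on genes that include CYP26A1 and DHRS3, which forms a negative feedback on the retinoic acid level.

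The promoters of the CYP26 genes and of DHRS3 are shown because probe sets of these genes had the 3 largest ATRA differences among the members. Each stretch is the 250 bases before 1 annotated start, on the gene's own strand, from RefSeq on GRCh38.p14, at chr10:93073643-93073892 (plus strand) for CYP26A1, chr2:72147863-72148112 (minus strand) for CYP26B1 and chr1:12618211-12618460 (minus strand) for DHRS3. CYP26A1 has 2 annotated starts in the table, and the one shown was picked because its stretch holds the pair of receptor half-sites set in capitals. DHRS3 has 3, of which the outermost is shown, and CYP26B1 has 1.
CYP26A1: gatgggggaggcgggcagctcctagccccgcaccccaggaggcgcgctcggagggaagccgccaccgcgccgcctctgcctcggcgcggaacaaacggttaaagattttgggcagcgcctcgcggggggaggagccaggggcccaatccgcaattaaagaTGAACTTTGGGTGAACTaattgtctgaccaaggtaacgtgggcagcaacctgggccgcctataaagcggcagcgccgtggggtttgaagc
CYP26B1: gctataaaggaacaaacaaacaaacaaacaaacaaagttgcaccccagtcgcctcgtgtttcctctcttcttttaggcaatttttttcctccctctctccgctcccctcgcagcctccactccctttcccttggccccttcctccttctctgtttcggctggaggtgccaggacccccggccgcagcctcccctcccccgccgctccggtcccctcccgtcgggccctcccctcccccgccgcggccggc
DHRS3: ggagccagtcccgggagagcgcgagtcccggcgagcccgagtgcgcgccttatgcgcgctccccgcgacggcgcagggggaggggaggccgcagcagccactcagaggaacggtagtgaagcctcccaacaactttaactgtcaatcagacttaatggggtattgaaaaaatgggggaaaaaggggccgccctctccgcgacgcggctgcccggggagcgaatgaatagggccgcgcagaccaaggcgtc

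The motif searched was a half-site of 6 bases (AGGTCA or GGGTCA or AGTTCA or GGTTCA), and the same with a second half-site on the same strand after 1, 2 or 5 bases. Both strands were read in windows from 250 bases before to 50 bases after each start. Every pair also counts as a half-site. Of the 9 genes, 8 had a window in the RefSeq table, with 15 windows among them, and RDH10 had none. A pair with 5 bases between its half-sites was in 1 of the 15 windows, that of CYP26A1, against 31 of all 35116 windows (0.0883%). It lies on the minus strand at chr10:93073803-93073819, from 90 to 74 bases before the start. No member window held a pair with 1 or 2 bases between, which 0.131% and 0.0399% of all windows held. At least 1 half-site, alone or in a pair, was in 6 of the 15 windows and in 38.6% of all windows. For DHRS3 the stretch shown holds none, and the windows of its other 2 starts hold 1 each. The same search finds a pair of this spacing in the promoter of RARB, the retinoic acid receptor beta gene, from 53 to 37 bases before its start at chr3:25428210-25428226 on the plus strand, and RARB was added for this match. The pairs are set one above the other, each read on its own strand, with the half-sites in capitals.
CYP26A1 pair: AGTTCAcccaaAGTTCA
RARB pair: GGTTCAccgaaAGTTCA

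A letter match is a description of the sequence, not a measured binding site. CYP26A1 and RARB did not read alike on the arrays, and the other genes among the 29 with a pair of this spacing were not compared. RARB was read by its brightest probe set only (217020_at), with experiment means of 5.77 and 5.73 under ATRA and 5.82 under DMSO. That probe set was dim, below the overall median, where a difference is poorly measured, so it does not settle whether RARB responded. The CYP26A1 probe set had the largest ATRA difference on the array.

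CYP26A1, the main retinoic acid hydroxylase, read 11.46 with siRNA and 11.21 with scrambled RNA in experiment 1, and 12.21 and 11.85 in experiment 3, all under ATRA. Under DMSO in experiment 2 it read 5.75 with siRNA and 5.72 with scrambled RNA (206424_at). The 4 ATRA arrays lay far above both DMSO arrays, and the DMSO values lay just under the median of all probe sets. ATRA minus DMSO, taken on experiment means, was 5.94 ± 0.43 (moderated SE, n = 2 ATRA experiments and 1 DMSO experiment), a signal 61.6-fold higher. It was 5.60 in experiment 1 and 6.29 in experiment 3. Because the DMSO signal was dim, this is a fold in array signal and may understate the fold in RNA. CYP26A1 ranked 1 of 54613 probe sets by this difference, also in each ATRA experiment by itself. These are values of RNA from many cells, in which fewer expressing cells and less RNA per cell cannot be told apart.

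The test of ATRA against DMSO had 1 residual degree of freedom and called 0% of all probe sets (limma, Benjamini-Hochberg adjustment over 54613 probe sets, threshold 0.05), so none of the 17 members passed. The smallest adjusted p of any probe set was 0.995, and 456 probe sets had an unadjusted p under 0.05, CYP26A1 (95% interval 4.59 to 7.30) and DHRS3 among them. With the arrays kept apart and the experiment as a random block, limma called 0.00366% of probe sets, which is CYP26A1 (adjusted p = 0.0412, 95% interval 5.21 to 6.68) and 1 unnamed probe set. With the 6 arrays and no block, only the unnamed probe set was called, and CYP26A1 had an adjusted p of 0.0982 (limma). Both fits have 3 residual degrees of freedom from single arrays, and the random block uses 1 correlation (0.497) for all probe sets. Treatment was given per experiment, with 1 under DMSO. These p-values therefore count arrays of 1 experiment as partly (random block) or fully (no block) separate replicates of treatment. Experiment 1 was also set against experiment 2, and experiment 3 against experiment 2, with the arrays as replicates, so that the spread is that within experiments. In experiment 1, 2 of the 17 members were called against 0.178% of all probe sets, and these were CYP26A1 (adjusted p = 0.000279 by limma) and DHRS3 (adjusted p = 0.0387). In experiment 3, 10 of the 17 were called, but 25.4% of all probe sets were.

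**Figure D1:**
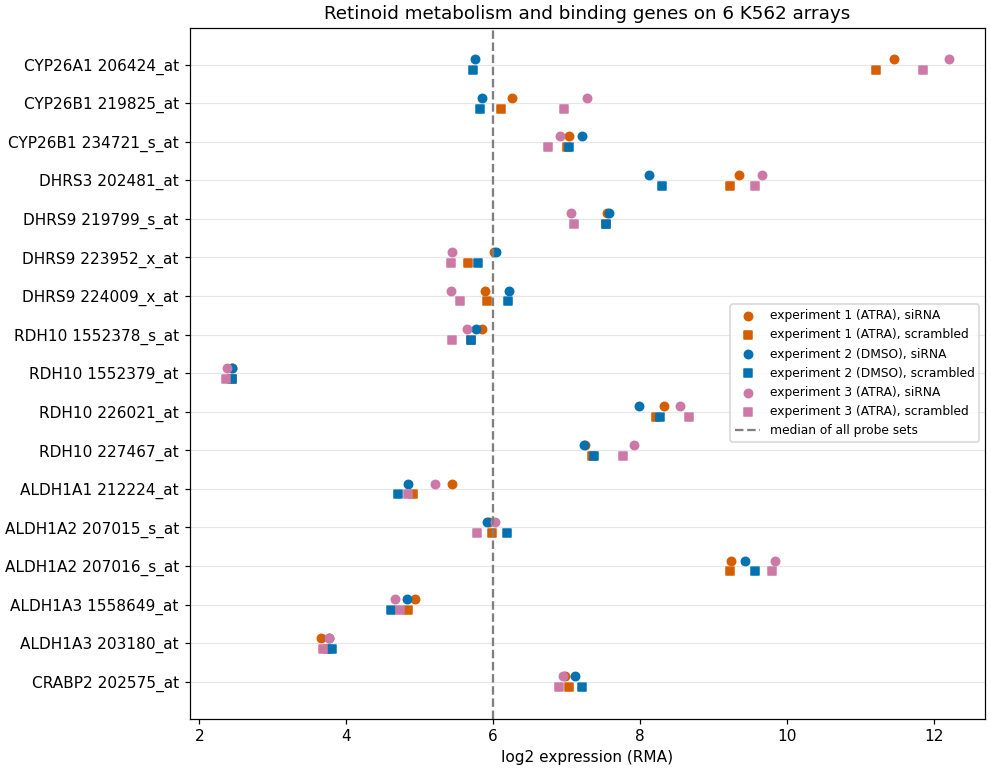
Log2 expression (horizontal axis) of the 17 probe sets on each of the 6 arrays, with circles for siRNA and squares for scrambled RNA, coloured by experiment; the dashed line is the median of all probe sets. CYP26A1 reads 5.72 and 5.75 under DMSO and 11.21 to 12.21 under ATRA, while most other members keep their arrays within about 1 log2 unit.

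CYP26B1, a second hydroxylase of the family, has a probe set (219825_at) that read 6.26 and 6.10 in experiment 1, 7.28 and 6.97 in experiment 3, and 5.85 and 5.83 under DMSO, siRNA first. All 4 ATRA arrays lay above both DMSO arrays, and experiment 3 lay 0.94 above experiment 1. ATRA minus DMSO was 0.81 ± 0.49 (SE), with 0.34 in experiment 1 and 1.28 in experiment 3. Experiment 1 against experiment 2 had an adjusted p of 0.253 and experiment 3 against it one of 0.000408 (limma, arrays as replicates). The call therefore came with experiment 3 alone, where 25.4% of all probe sets were called. The other CYP26B1 probe set (234721_s_at) went the opposite way: it read 7.04 and 7.01 in experiment 1, 6.92 and 6.75 in experiment 3, and 7.22 and 7.04 under DMSO. Its difference was -0.20 ± 0.19 (SE), with -0.10 in experiment 1 and -0.29 in experiment 3. With the arrays as replicates, its adjusted p was 0.665 in experiment 1 and 0.0483 in experiment 3 (limma). The probe sets of this gene therefore disagree, and no direction is given for the gene.

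DHRS3, a reductase that returns retinal to retinol, read 9.34 and 9.22 in experiment 1, 9.66 and 9.57 in experiment 3, and 8.12 and 8.30 under DMSO, siRNA first (202481_at). The ATRA arrays all lay above the DMSO arrays, and the gap between the groups was wider than the spread within either. ATRA minus DMSO was 1.24 ± 0.29 (SE, 95% interval 0.30 to 2.17), 2.36-fold in signal, with 1.07 in experiment 1 and 1.40 in experiment 3. It ranked 43 of 54613, and 18 in experiment 1 but 238 in experiment 3, where many more probe sets differed. With the random block its adjusted p was 0.978 (limma). Only 15 probe sets, 0.0275% of all, lay at least 1 log2 unit above DMSO in both ATRA experiments, and CYP26A1 and DHRS3 were the members among them.

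**Figure D2:**
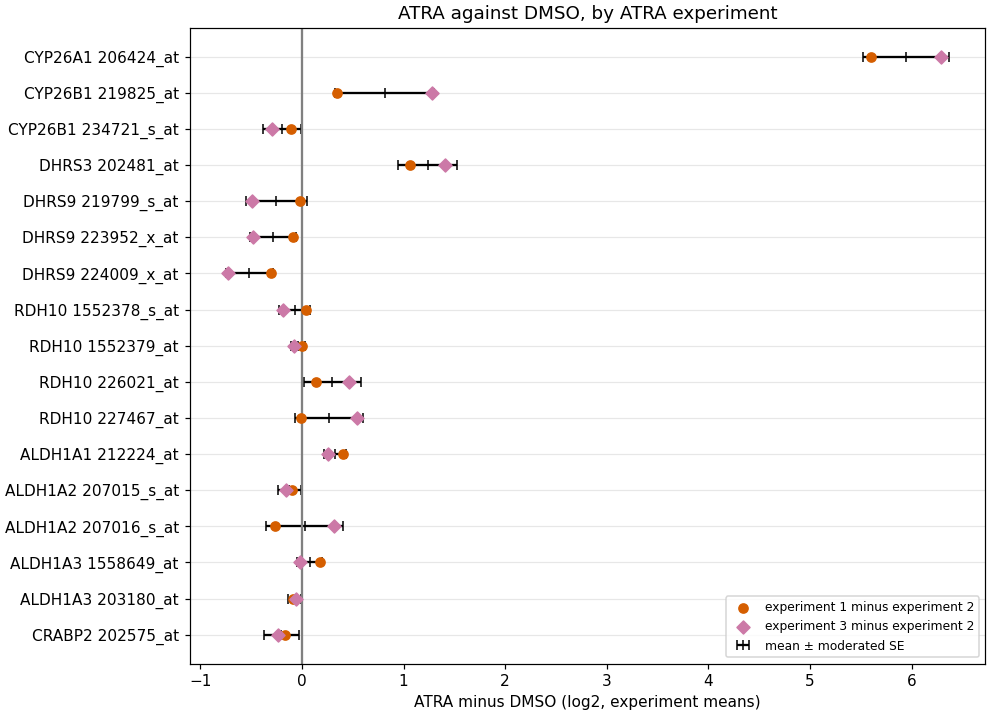
ATRA minus DMSO (log2, horizontal axis) of the 17 probe sets, with a circle for experiment 1 and a diamond for experiment 3, each against experiment 2; the bar is the mean with its moderated SE. CYP26A1 lies at 5.60 and 6.29 and DHRS3 at 1.07 and 1.40, and the remaining probe sets lie between -0.72 and 1.28.

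DHRS9, a dehydrogenase that oxidises retinol, was read by 3 probe sets, whose ATRA minus DMSO values were all below 0: -0.25 ± 0.30 for 219799_s_at, -0.28 ± 0.22 for 223952_x_at and -0.52 ± 0.23 for 224009_x_at (SE). In experiment 1 they were -0.02, -0.08 and -0.31 in that order, and in experiment 3 they were -0.49, -0.48 and -0.72. The probe set 219799_s_at read 7.55 and 7.54 in experiment 1, 7.05 and 7.09 in experiment 3, and 7.58 and 7.54 under DMSO, so experiment 1 lay among the DMSO arrays. In 224009_x_at, with 5.89 and 5.92, 5.42 and 5.55, and 6.22 and 6.20 in the same order, all ATRA arrays lay below both DMSO arrays. The probe sets 223952_x_at and 224009_x_at had means below the overall median, where a difference is poorly measured. With the arrays as replicates, none of the 3 was called in experiment 1, where 0.178% of all probe sets were. All 3 were called in experiment 3, with adjusted p-values of 0.00663, 0.0142 and 0.00220 in the same order (limma), but so were 25.4% of all probe sets.

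RDH10, the dehydrogenase that makes most of the retinal in the embryo, had 4 probe sets with no common direction. The brightest, 226021_at, read 8.32 and 8.21 in experiment 1, 8.54 and 8.66 in experiment 3, and 7.99 and 8.28 under DMSO. Its lowest ATRA array lay between the DMSO arrays, and ATRA minus DMSO was 0.30 ± 0.28 (SE), with 0.13 in experiment 1 and 0.47 in experiment 3. The probe set 227467_at differed by -0.01 in experiment 1 and 0.54 in experiment 3. The others were dim: 1552378_s_at differed by -0.07 ± 0.15 (SE), with 0.04 and -0.19 in experiments 1 and 3, and 1552379_at stood at 2.45 on 4 arrays and at 2.38 and 2.36 in experiment 3, far under the overall median.

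ALDH1A1, a retinal dehydrogenase that forms retinoic acid, read 5.44 and 4.91 in experiment 1, 5.20 and 4.84 in experiment 3, and 4.84 and 4.70 under DMSO (212224_at). These are low signals, all under the overall median, and the lowest ATRA array was less than 0.01 above the higher DMSO array. ATRA minus DMSO was 0.33 ± 0.11 (SE, 95% interval -0.01 to 0.67), with 0.40 in experiment 1 and 0.25 in experiment 3. ALDH1A2, the dehydrogenase of the early embryo, had a bright probe set (207016_s_at) with experiment means that fell on both sides of DMSO: -0.26 in experiment 1 and 0.32 in experiment 3. It read 9.24 and 9.22, 9.83 and 9.80, and 9.43 and 9.56 in experiments 1, 3 and 2. Its other probe set (207015_s_at) differed by -0.12 (-0.09 in experiment 1 and -0.16 in experiment 3), with arrays from 5.77 to 6.19. Both probe sets of ALDH1A3, the last dehydrogenase of the family, were dim. In experiments 1 and 3 they differed from DMSO by 0.17 and -0.02 (1558649_at) and by -0.08 and -0.06 (203180_at).

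CRABP2, which delivers retinoic acid to its receptors, read 6.97 and 7.03 in experiment 1, 6.96 and 6.90 in experiment 3, and 7.11 and 7.22 under DMSO (202575_at). Every ATRA array lay below both DMSO arrays, but the difference was small, -0.20 ± 0.17 (SE, 95% interval -0.74 to 0.34), with -0.16 in experiment 1 and -0.24 in experiment 3. Its adjusted p was 0.995 (limma).

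Counted over the members, all 4 ATRA arrays lay above both DMSO arrays in 4 of 17 probe sets, against 11.1% of all probe sets, and below them in 3 of 17, against 11.8%. The 4 were those of CYP26A1, DHRS3 and ALDH1A1 and 219825_at of CYP26B1, and the 3 were 234721_s_at of CYP26B1, 224009_x_at of DHRS9 and that of CRABP2. The median ATRA minus DMSO was -0.04 over the 17 probe sets and -0.015 over all. Probe sets of 1 gene share their target, so these counts are not of separate genes.

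**Figure D3:**
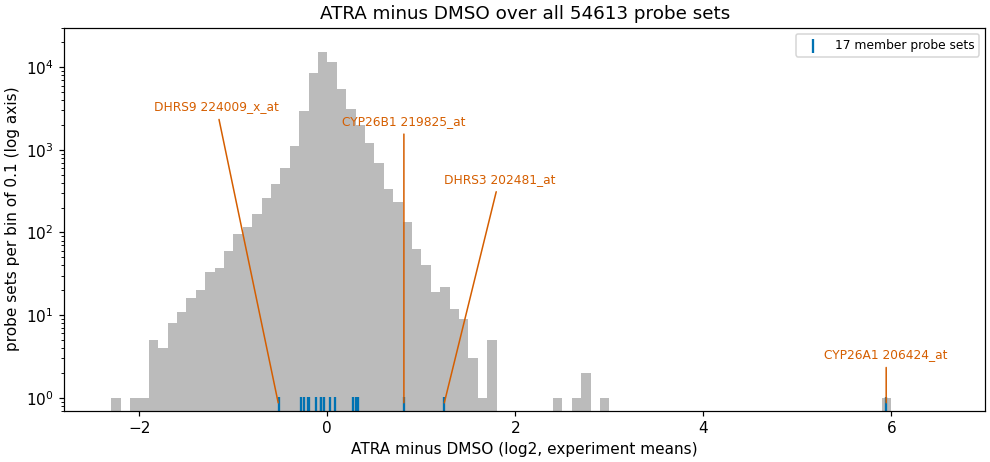
Number of probe sets (vertical log axis) by ATRA minus DMSO (log2, in steps of 0.1), for all 54613 probe sets in grey, with blue ticks for the 17 members. CYP26A1 stands by itself at 5.94, DHRS3 lies at 1.24 in the upper tail, and most members lie within the bulk around 0.

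The siRNA was compared with scrambled RNA within each experiment. CYP26A1 was higher with siRNA by 0.25 in experiment 1, 0.36 in experiment 3 and 0.03 under DMSO, a mean of 0.21 ± 0.17 (SD, n = 3 experiments). In ALDH1A1 the differences were 0.53, 0.36 and 0.14 in the same order, a mean of 0.34 ± 0.20 (SD, n = 3), which ranked 60 of 54613. Both genes were higher with siRNA in each experiment, with the larger values in the ATRA experiments. DHRS3 was higher by 0.12 and 0.09 under ATRA and lower under DMSO, with a difference of -0.18, so its mean was 0.01.

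None of these passed the test. The fit over all 6 arrays with treatment as a covariate called 0% of probe sets, and 657 had an unadjusted p under 0.05 (limma), of which ALDH1A1 was 1 (difference 0.34 ± 0.10 SE, 95% interval 0.09 to 0.60). With the experiment as a block it called 0.00183% of probe sets, which is PRAME alone. In that blocked fit the CYP26A1 difference was 0.21 ± 0.07 (SE, 95% interval 0.06 to 0.37) and that of ALDH1A1 0.34 ± 0.09 (SE, 95% interval 0.14 to 0.55), both with an adjusted p of 0.872 by limma. Exact permutation over the labels cannot go below 0.1 in this design and over the pair signs not below 0.25. The lowest adjusted p over the 17 members in the test of pair signs was 0.708 (exact, two-sided).

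Of the 17 members, 6 were higher with siRNA in all 3 experiments, against 12.3% of all probe sets, and 0 were lower in all 3, against 11.3%. The 6 were CYP26A1, both probe sets of CYP26B1, 223952_x_at of DHRS9, 1552378_s_at of RDH10 and ALDH1A1. Their differences were modest. For CYP26B1 they were 0.16, 0.02 and 0.31 (219825_at) and 0.02, 0.18 and 0.16 (234721_s_at) in experiments 1, 2 and 3, with means of 0.16 and 0.12, and the means of 223952_x_at and 1552378_s_at were 0.21 and 0.14. The 3 last named, 223952_x_at, 1552378_s_at and ALDH1A1, all had means under the overall median. For DHRS9 and RDH10 other probe sets of the same gene did not share the direction. Over all members the median siRNA difference was 0.01, and over all probe sets 0.00.

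**Figure D4:**
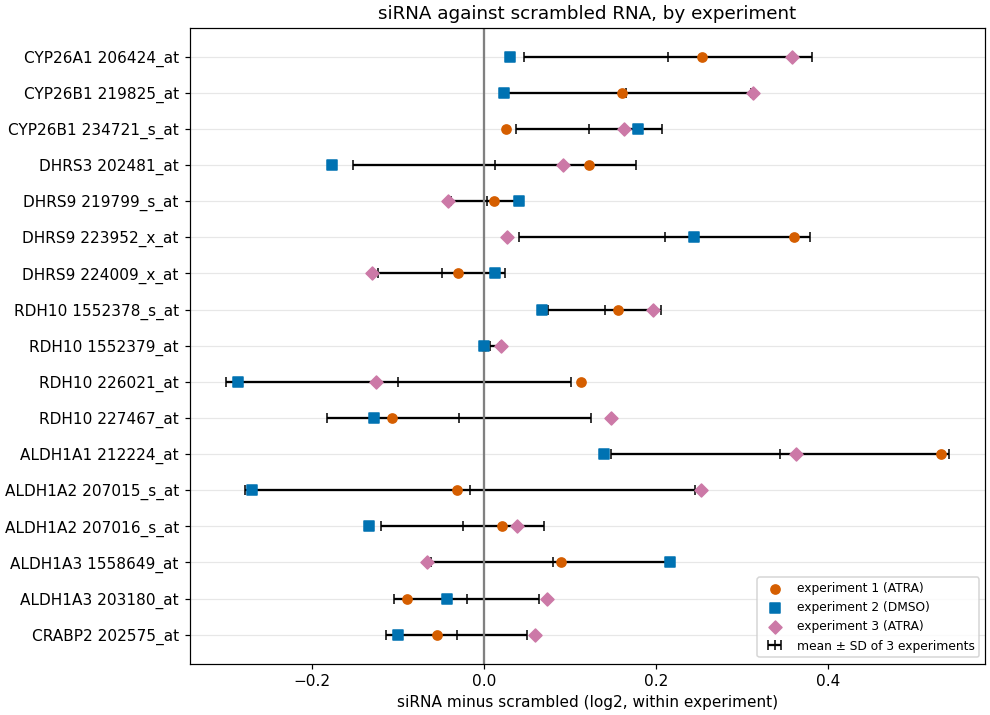
siRNA minus scrambled RNA (log2, horizontal axis) of the 17 probe sets in each experiment, circles and diamonds for the ATRA experiments and squares for DMSO; the bar is the mean with the SD of the 3 experiments. CYP26A1 and ALDH1A1 lie above 0 in each experiment, and DHRS3 lies on both sides.

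Whether the siRNA difference was larger under ATRA than under DMSO was tested for all 17 probe sets, and the difference of differences ran from -0.20 (1558649_at of ALDH1A3, 95% interval -0.81 to 0.40) to 0.38 (207015_s_at of ALDH1A2, 95% interval -0.17 to 0.93). It was 0.27 for CYP26A1 (95% interval -1.64 to 2.19), 0.28 for DHRS3 (95% interval -0.79 to 1.36) and 0.31 for ALDH1A1 (95% interval -0.22 to 0.84). None of these intervals excludes 0. The fit called 0% of all probe sets, with 702 at an unadjusted p under 0.05 (limma), and each DMSO group in it is 1 array, assumed to vary like the ATRA groups. With the block the interval for CYP26A1 was -0.02 to 0.57, and its adjusted p was 1 (limma). The block pairs the arrays of an experiment, which the fit before it does not, so the wider intervals take in gaps between experiments. For CYP26A1 the SE was 0.12 with the block and 0.67 without. It was 0.12 and 0.38 for DHRS3, and 0.17 and 0.18 for ALDH1A1. The comparisons of siRNA effects share arrays with the previous ones.

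The genes whose pattern over the 6 arrays was most like that of CYP26A1 were sought among 2629 probe sets of named genes with a range of at least 1 log2 unit. Each gene was taken by its probe set with the highest r. The values below are thus of probe sets picked for likeness, and other probe sets of these genes were not compared. The 5 closest were SLC2A12, a glucose transporter (r = 0.997), NMU, a neuropeptide (r = 0.990), PDK4, a kinase that holds back pyruvate dehydrogenase (r = 0.989), ARAP3, a GTPase-activating protein (r = 0.980), and JUN, a transcription factor subunit (r = 0.974). The 6 points share experiments and treatment, so r is a description of arrays that mostly form an ATRA set and a DMSO set. Their differences from DMSO in that order were 0.82, 1.02, 2.73, 1.38 and 0.89 in experiment 1 and 0.97, 0.99, 3.12, 1.27 and 0.85 in experiment 3. PDK4 read 8.14 and 8.24 in experiment 1, 8.36 and 8.79 in experiment 3, and 5.31 and 5.62 under DMSO, siRNA first, which is the widest separation of the 5. Unlike CYP26A1, it was lower with siRNA in each experiment.

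**Figure D5:**
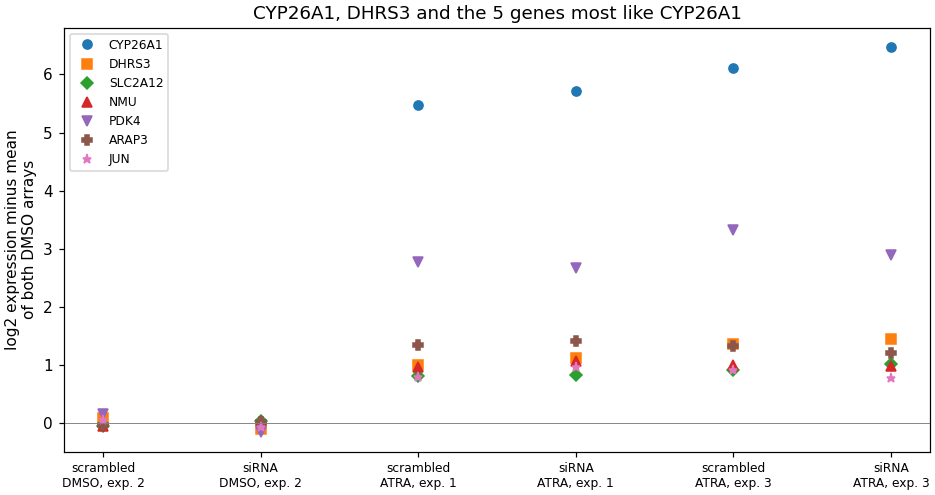
Log2 expression minus the mean of both DMSO arrays (vertical axis) on each of the 6 arrays, for CYP26A1, DHRS3 and the 5 genes most like CYP26A1. CYP26A1 lies above 5 on every ATRA array, PDK4 near 3 and the others near 1.

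The rest of the retinoid pathway was read from lists of genes, each gene by its brightest probe set, and no gene of these lists passed the test in either direction. Among genes of uptake and transport, 12 of 14 were measured, with both ATRA experiments above DMSO in 1 and below it in 6. SCARB1, a lipoprotein receptor that takes up carotenoids, differed by 0.22, with -0.10 in experiment 1 and 0.55 in experiment 3, and FABP5, a carrier of fatty acids and retinoic acid, by -0.18 (-0.13 and -0.22). Of the cellular retinol-binding proteins, RBP7 differed by -0.11 and -0.15 in experiments 1 and 3, and RBP5 by 0.16 and -0.34, on opposite sides of DMSO. Among genes of retinyl esters and carotenoids, 11 of 12 were measured, 2 above and 5 below. The ATRA experiments lay on opposite sides of DMSO for PNPLA4, a retinyl ester hydrolase, with 0.11 in experiment 1 and -0.41 in experiment 3, and for DGAT1, which can esterify retinol, with -0.07 and 0.32. RETSAT, a retinol saturase, differed by 0.07 and 0.10, and CES1, an ester hydrolase, by -0.12 and -0.0036. The medians of these lists were -0.07 and -0.02, against -0.01 over all 19775 genes, of which 6257 lay above DMSO in both experiments and 7218 below.

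Of 25 other oxidoreductases, 21 were measured, 4 above DMSO in both experiments and 4 below, against 6257 and 7218 of all 19775 genes. Among the 4 with the largest mean differences, the ATRA experiments lay on opposite sides of DMSO for 3 and on the same side for RDH8, a photoreceptor retinol dehydrogenase, with -0.19 in experiment 1 and -0.08 in experiment 3. DHRS7 differed by 0.06 in experiment 1 and -0.70 in experiment 3, ALDH1B1 by -0.21 and 0.64, and AKR1C3 by 0.53 and -0.25. Of 10 other enzymes of retinoic acid clearance, 8 were measured, 2 above and 2 below. CYP3A5, a drug-metabolising cytochrome, lay at 7.69 and 8.01 in experiments 1 and 3 and at 7.22 under DMSO, which is 0.63 between the groups. CYP2S1 differed by 0.11 and 0.07 in experiments 1 and 3, and CYP3A4 by 0.02 and -0.12.

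All 8 receptor genes were measured, 3 above and 4 below, where 6257 of all 19775 genes lay above and 7218 below. PPARD, a nuclear receptor that can bind retinoic acid, differed by 0.18 in experiment 1 and 0.51 in experiment 3. In the same order RXRB differed by 0.07 and 0.23, RXRA by -0.13 and -0.15 and RORA by -0.08 and -0.12. Of 21 genes known to be induced by retinoic acid in various cells, 16 were measured, 7 above and 6 below, with a median of 0.02. The 4 with the largest mean differences lay above DMSO in both experiments. ABCA1, which exports cholesterol, differed by 2.80, from experiment means of 9.25 and 7.69 with ATRA and 5.67 with DMSO. PLAT, the tissue plasminogen activator, differed by 1.58 in experiment 1 and 1.38 in experiment 3, THBD, the thrombomodulin gene, by 0.71 and 0.83, and PRKCA, a protein kinase C, by 0.27 and 0.58. Each of these had an adjusted p of 0.995 (limma) for ATRA against DMSO.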

How the data were processed

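The deposited table holds log2 values of 6 K562 arrays, which the authors made with RMA (robust multi-array average) using BRB-ArrayTools, according to the design text. RMA summarises each probe set on a log2 scale, which compresses differences of dim probe sets. For its version and settings, nothing is given in the sources used here. Per the labels' protocols, RNA came from a TRIzol preparation and the 3' IVT Express kit labelled it. Arrays give no read depth, and the number of arrays limits the precision. Of 54675 probe sets, 62 controls were left out, and of the 54613 tested 41091 had 1 gene in the platform annotation, 1801 several and 11721 none listed. Probe sets with several genes named none.

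The members and lists were chosen with earlier results of these data known. Linear models were fitted in R 4.3.3 with limma 3.58.1 (lmFit, eBayes with intensity trend, Benjamini-Hochberg over all tested probe sets). They were also run on simulated data, whose outcome is not given here and supports no result. ATRA against DMSO used each experiment's mean over its pair of arrays. No filter on dim probe sets was applied. The alternatives were 1 probe set or the mean per gene, median or quantile scaling, a filter on dim probe sets, no trend, blocks for the experiment and leaving out arrays or experiments.

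The text names all member probe sets, the 5 genes most like CYP26A1, at most 4 genes per list by the size of the ATRA difference among those at or above the median of all probe sets, and PRAME as a check of the labels. Experiment numbers, marked in the labels as independent experiments, pair the samples. Deviations from the mean of each RNAi label correlated at 0.703, 0.772 and 0.879 within them. Across experiments the values were 0.530 and 0.594 for 1 with 2 and, for pairs holding an array of experiment 3, -0.785 to -0.693. Part of the likeness is thus shared by experiments 1 and 2. Arrays of 1 experiment also share their treatment, so these values do not by themselves show the pairing. Promoter sequences are from RefSeq on GRCh38.p14.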

Additional observations from a re-analysis of the deposited data

How the results depend on the processing

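ATRA minus DMSO kept its sign for CYP26A1 (5.60 to 6.29) and DHRS3 (1.07 to 1.40) under every alternative run. The number of probe sets called was 0 as reported, 2 with the random block for the experiment, and 1 with all 6 arrays and no block (an unnamed probe set and not CYP26A1). It was from 97 to 13872 when 1 ATRA experiment was left out, the larger count without experiment 1, where 8062 were higher and 5810 lower. These left-out fits took single arrays as replicates, whereas the reported fit took experiment means. Their spread is that within experiments, so their counts are not comparable with the reported 0. Why the 2 left-out counts differ was not tested. For the siRNA the number was 0 as reported, 1 with the replicate block (PRAME, adjusted p = 0.0435 by limma), and 0 to 1 when single arrays or experiments were left out, PRAME being the 1 without experiment 3. The pairing changed no call of a member. The difference of siRNA effects called 0 under each alternative, with 1531 at an unadjusted p under 0.05 with the replicate block (limma).

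Among the probe sets followed, signs turned only in small differences. For ATRA, CYP26B1 gave -0.20 by 234721_s_at and 0.31 as the mean of its probe sets, which takes in 219825_at at 0.81. RDH10 ran from -0.19 to 0.044 (1552378_s_at) and from -0.0062 to 0.54 (227467_at) with experiments left out. ALDH1A2 gave 0.066 with siRNA arrays only (207015_s_at). Its probe set 207016_s_at, at 0.028 as reported, gave -0.0195 with quantile scaling, -0.054 with scrambled arrays only and -0.26 to 0.32 with experiments left out. The mean of both probe sets was -0.048, which takes in 207015_s_at at -0.12. ALDH1A3 (1558649_at) gave -0.025 with siRNA arrays only and -0.019 to 0.17 with experiments left out. For the siRNA, only the probe sets higher in all 3 experiments and that of DHRS3 were followed. Leaving out single arrays gave -0.027 to 0.40 for CYP26A1, -0.15 to 0.44 for CYP26B1 (219825_at) and -0.12 to 0.11 for DHRS3. An array left out leaves its partner unpaired, so gaps between experiments can enter these values. Leaving out whole experiments keeps the pairs. It gave 0.14 to 0.30 for CYP26A1, 0.09 to 0.24 for CYP26B1 (219825_at) and -0.04 to 0.11 for DHRS3. The difference of siRNA effects was followed in CYP26A1, DHRS3, ALDH1A1 and the probe sets with its lowest and highest value. In CYP26A1 it ran from -0.10 to 0.65 with single arrays left out, and was 0.33 without experiment 1 and 0.22 without experiment 3. Apart from the means over probe sets and the pairs broken by leaving out 1 array, the cause of these turns was not tested. With 1 DMSO experiment, no spread under DMSO between experiments was measured, and 8 of the 17 member probe sets lay below the median signal.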
